A study of Mus musculus with 8 samples.

Results

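Of 8 arrays of mouse epididymal fat, 4 read high for a transcript of spermatids, the haploid male germ cells that mature into sperm, and 4 read low. The arrays were chosen by the value of Tnp2, transition protein 2 of condensing spermatid chromatin. An array with a log2 value of 7 or more was called positive, and the other 4 negative. Tnp2 has 1 probe set with a single gene symbol, and its values describe the choice and are no evidence on how the sides differ. They were 8.95 in GC+ mouse 3, 8.80 in GC- mouse 1, 7.52 in GC- mouse 3 and 7.43 in GC- mouse 4 on the positive side. On the negative side they were 5.38, 5.35 and 5.37 in GC+ mice 1, 2 and 4 and 5.17 in GC- mouse 2. The array just inside the threshold read 7.43 and the array just outside it 5.38, so no array lay near 7.

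All 8 animals were male C57BL/6 mice, with 1 array per mouse. They were weaned at 3 weeks of age onto the HFn-6 diet, which draws 45% of its energy from fat and holds much n-6 fat. From 6 weeks of age the 4 GC+ mice received the glucocorticoid prednisolone each day in sweet potato puree, at a labelled dose of 40 mg per kg per square metre, and the 4 GC- mice received the puree alone. Treatment lasted 4 weeks, and the left epididymal fat pad was sampled at 10 weeks of age. The sides are uneven in treatment: the positive side holds 1 GC+ and 3 GC- mice, and the negative side 3 GC+ and 1 GC- mice. A difference between the sides is therefore also partly a difference between treatments, so the leading differences are also given within each treatment. The labels do not say how far the fat was trimmed from the epididymis and testis beside it.

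Late in spermatogenesis, condensing spermatids replace their histones first by transition proteins and then by protamines, which pack the sperm nucleus. The messages for these proteins, and for parts of the tail and the acrosome, are made early and stored in the spermatid before they are translated. Spermatids form in the seminiferous tubules of the testis. Finished sperm pass into the epididymis, a duct lined by a secretory epithelium that lies against this fat pad. Neither cell type is a normal part of adipose tissue. In bulk tissue, fewer cells of a type and less RNA per cell cannot be told apart.

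Short stretches upstream of 4 of these genes are shown because germ cell genes of this stage often carry a cAMP response element, the site bound by the spermatid activator CREM. The sequences are RefSeq promoter windows of build GRCm38.p6, cut to the 120 bases before the annotated start of transcription, all on the minus strand. They are chr16:10788656-10788775 for Tnp2, chr1:73015900-73016019 for Tnp1, chr16:10796824-10796943 for Prm1, and chr7:30743682-30743801 for Gapdhs, the first of 2 windows listed for that gene. Capitals mark every match to TGANNTCA, a loose form of the element that reads the same on both strands, and lower case marks the rest.
Tnp2: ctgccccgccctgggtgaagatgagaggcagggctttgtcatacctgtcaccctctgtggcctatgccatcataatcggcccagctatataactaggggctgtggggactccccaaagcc
Tnp1: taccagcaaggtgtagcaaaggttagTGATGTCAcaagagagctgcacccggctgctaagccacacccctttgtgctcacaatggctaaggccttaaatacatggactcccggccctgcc
Prm1: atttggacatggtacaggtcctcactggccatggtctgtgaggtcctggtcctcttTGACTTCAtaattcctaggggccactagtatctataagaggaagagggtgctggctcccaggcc
Gapdhs: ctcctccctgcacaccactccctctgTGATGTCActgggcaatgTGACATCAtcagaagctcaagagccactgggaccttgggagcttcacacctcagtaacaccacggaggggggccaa
The matches begin at position -94 in Tnp1, -64 in Prm1, and -94 and -76 in Gapdhs, counted from the start, and the Tnp2 window holds no match. The loose form was picked after these windows were seen.

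Across the 8 arrays, Tnp1, transition protein 1, separated the same mice as Tnp2. It read 8.78 in GC+ mouse 3 and 8.09, 7.43 and 7.02 in GC- mice 1, 3 and 4. The negative arrays read 5.70, 5.16 and 5.52 in GC+ mice 1, 2 and 4 and 5.28 in GC- mouse 2. No negative array came within 1 log2 unit of a positive one, and placing the border at the widest gap of the Tnp1 values gave the same sides. The side means were 7.83 ± 0.77 and 5.42 ± 0.24 (SD, n = 4 each), a difference of 2.42 or 5.34-fold. Within GC- mice the difference was 2.24 and within GC+ mice 3.32.

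Prm1, protamine 1, the arginine-rich protein that packs the finished sperm nucleus, was apart as well but started from a higher floor. It read 9.57 in GC+ mouse 3, 9.48 in GC- mouse 1, 8.61 in GC- mouse 4 and 8.15 in GC- mouse 3. The negative arrays lay between 7.23 and 7.64. The difference of side means was 1.55, with 1.38 within GC- and 2.15 within GC+ mice. GC- mouse 3 was the positive array nearest to the negative ones for Prm1, and the widest gap of the Prm1 values set off GC+ mouse 3 and GC- mouse 1 alone. The probe set of Prm2 also carries another gene's symbol and is named only.

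The other nuclear packaging genes moved less. H1f7, a linker histone of spermatids, read 5.97 to 6.36 on the positive arrays and 5.37 to 5.67 on the negative ones, a difference of 0.64. Prm3, which lies beside Prm1 and Tnp2 and carries the protamine name, differed by 0.19, with positive values of 6.26 to 7.03 that overlapped the negative range of 6.31 to 6.73. Hils1, a linker histone of late spermatids, and Brdt, a bromodomain protein of male germ cells, differed by 0.23 and 0.21, both with overlap. Of 12 measured members of the chromatin packaging list, 3 were at least 2-fold higher with the sides apart: Tnp1, Prm1 and Tnp2, which set the sides. Of all 22180 measured genes, 45 (0.203%) were higher in this way. With H1f7, 4 members of the list, Tnp2 again included, were higher with the sides apart at any fold, as were 1.44% of all measured genes.

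**Figure D1:**
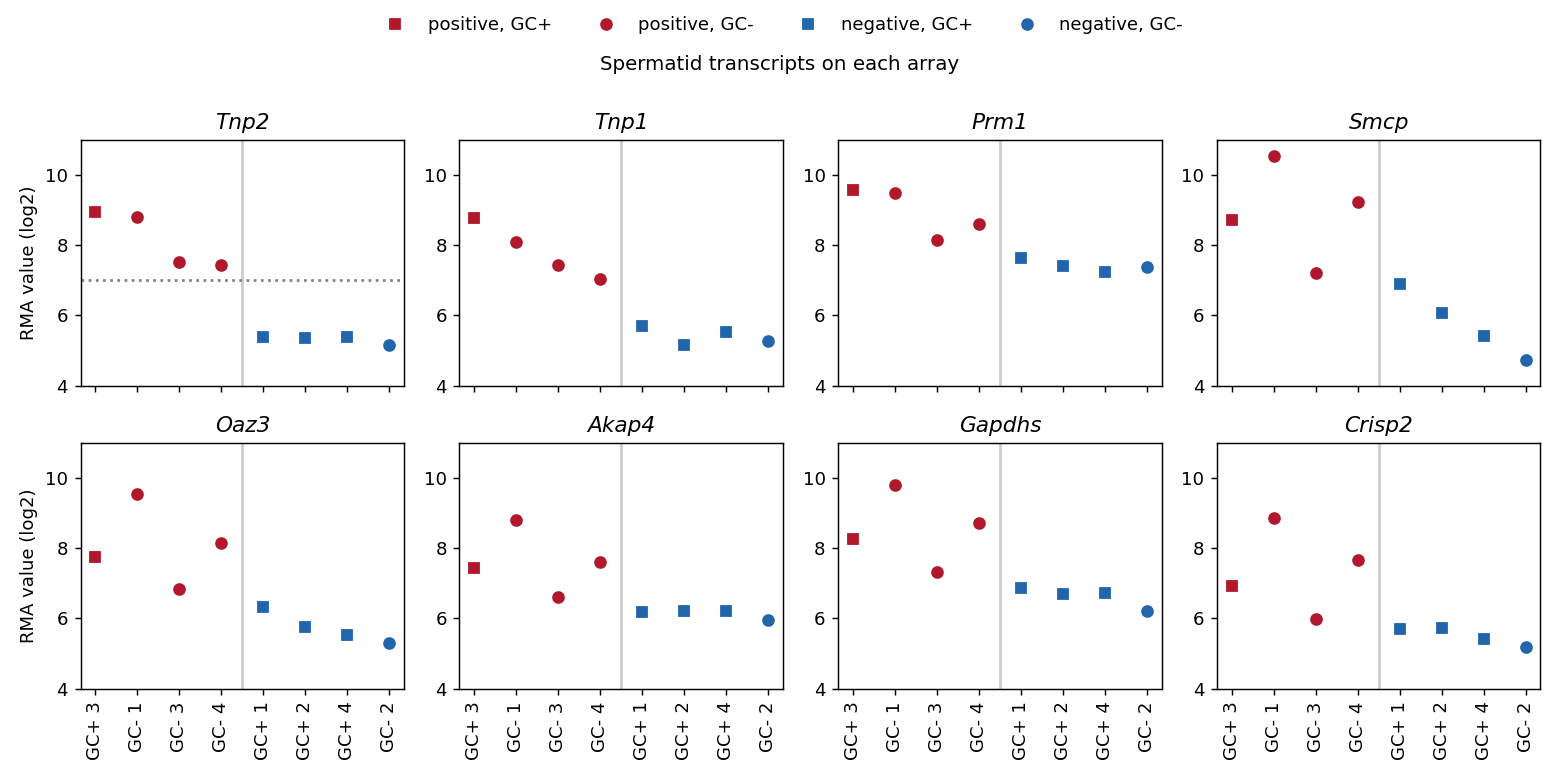
RMA values (log2, vertical axis) of 8 spermatid transcripts on each of the 8 arrays (horizontal axis); squares are GC+ mice, circles GC- mice, red the positive and blue the negative side, and the dotted line is the Tnp2 threshold of 7. Each of the 8 genes has its 4 positive arrays above its 4 negative ones; GC+ mouse 3 is highest for Tnp2, Tnp1 and Prm1, and GC- mouse 1 for the other 5.

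Over the whole array, a gene was called when its side means differed at least 2-fold, 1 on the log2 scale, and no positive array overlapped a negative one. After the dimmest 33.3% of genes were left out, 33 of 14787 genes (0.223%) were called higher in positive arrays, Tnp2 among them, and 2 (0.0135%) lower. The contrast was set from the same arrays, so these counts and all differences between the sides are descriptions with no test. The sides were apart at any fold in 419 of these genes, 200 higher and 219 lower. Past 2-fold with overlap allowed, 182 genes (1.23%) were higher. The median difference over the 14787 genes was -0.02. All 33 genes were higher on the positive side within both treatments, which the rule of no overlap fixes in advance. For 25 of them the difference was at least 2-fold within both. With treatment as a term beside the side, 32 genes were called higher, 27 of them among the 33. The count of 33 became 51 without GC+ mouse 2 and 59 without GC- mouse 3, and the 33 were among the called genes in both. It was 25 without GC- mouse 1, with 24 of the 33 among them. Of the 33, 28 carry a gene name and 5 a clone or predicted name.

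Transcripts of the sperm tail and its mitochondrial sheath made up the longest group. Smcp, with the largest difference of all called genes, is a cysteine-rich protein of the sperm mitochondrial capsule. It read 10.53 in GC- mouse 1, 9.21 in GC- mouse 4, 8.71 in GC+ mouse 3 and 7.21 in GC- mouse 3. The negative arrays read 6.89, 6.06 and 5.42 in GC+ mice 1, 2 and 4 and 4.72 in GC- mouse 2. The sides did not overlap, but only 0.32 separated GC- mouse 3 from GC+ mouse 1. The difference was 3.14, or 8.82-fold, with 4.26 within GC- and 2.58 within GC+ mice.

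Oaz3, the antizyme of polyamine metabolism restricted to spermatids, read 9.53, 6.83 and 8.15 in GC- mice 1, 3 and 4 and 7.74 in GC+ mouse 3. Its negative arrays lay between 5.31 and 6.33, and the difference was 2.32, with 2.86 within GC- and 1.86 within GC+ mice. Akap4, the main protein of the fibrous sheath around the tail, read 8.81, 6.62 and 7.60 in GC- mice 1, 3 and 4 and 7.44 in GC+ mouse 3, against 5.95 to 6.21. Its difference was 1.48, with 1.73 within GC- and 1.24 within GC+ mice. Spem1, needed for shaping of the sperm head and neck, differed by 1.76. Gsg1, a germ cell protein, differed by 1.58 and Tcp11, a tail protein linked to sperm motility, by 1.04. Of 39 measured members of the tail list, 6 were called higher, where 45 of all 22180 measured genes (0.203%) were, and 32 were higher at any size. The list median was 0.48 and the median of all measured genes -0.02.

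Not all tail genes separated the sides. Spata3, Hook1, Spata18 and Spa17 differed by 1.37, 1.28, 1.14 and 1.08, yet their sides overlapped. Hook1, a linker of membranes to microtubules, differed by 2.55 within GC- mice and by -0.0033 within GC+ mice. It read 6.85 in GC+ mouse 2, a negative array, against 5.83 in GC+ mouse 3, a positive one. Odf1, the main protein of the outer dense fibres of the tail, has 2 probe sets, and they disagree. The brighter, used for the list counts, read 12.57 to 12.92 on all 8 arrays and differed by -0.09. The dimmer read 9.91, 7.22 and 8.63 in GC- mice 1, 3 and 4 and 7.72 in GC+ mouse 3, against 6.20 to 6.84, a difference of 1.82 with the sides apart. The average of both differed by 0.86.

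Germ cell forms of metabolic enzymes followed the tail genes. Gapdhs, the glycolytic dehydrogenase bound to the fibrous sheath, read 9.80, 7.33 and 8.70 in GC- mice 1, 3 and 4 and 8.25 in GC+ mouse 3. The negative arrays lay between 6.22 and 6.85, and the difference was 1.90, or 3.73-fold, with 2.39 within GC- mice and 1.495 within GC+ mice. Pgk2, the phosphoglycerate kinase encoded by a retrogene of germ cells, was among the dim genes. It read 7.52, 4.69 and 5.97 in GC- mice 1, 3 and 4 and 5.84 in GC+ mouse 3, against 3.80 to 4.59. Its sides were apart by 0.09 and its difference was 1.81. Pgam2, a phosphoglycerate mutase of muscle and testis, was apart with a smaller difference of 0.72. Of 16 measured members, 2 were called higher and 15 were higher at any size, with a list median of 0.29. Of all 22180 measured genes, 0.203% were called higher and 9877 were higher at any size.

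Genes of the acrosome, the vesicle that opens at the egg, differed less. Crisp2, a cysteine-rich protein of the acrosome and tail, read 8.86, 5.99 and 7.66 in GC- mice 1, 3 and 4 and 6.92 in GC+ mouse 3, against 5.19 to 5.71. Its difference was 1.85, with 2.31 within GC- and 1.31 within GC+ mice. It was the 1 called of 34 measured members, beside 45 of all 22180 genes (0.203%), and the list median was 0.11 against -0.02 for all genes. Adam3, a sperm surface protein of the ADAM family, differed by 0.97 with overlap, since GC- mouse 3 read 5.68 and GC+ mouse 4 read 5.85. On all 8 arrays, 17 of the 34 members stayed below 5.82, the limit set for dim genes. Among sperm ion channels and transporters 0 of 15 were called, which is near the 0.203% called higher over all genes. The largest difference there was 0.86 for Atp1a4, the sodium pump subunit of sperm. The sides of Atp1a4 were apart, which makes it higher within both treatments, by 0.90 within GC- and 0.71 within GC+ mice.

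Further genes called higher belong to none of the gene lists, and several are known from the testis. Lelp1, a small proline-rich protein, differed by 2.35, with 2.57 within GC- and 1.93 within GC+ mice. Dbil5, a testis relative of the acyl-CoA binding protein, differed by 2.14, with 2.95 and 1.63. Spz1, a leucine zipper factor of spermatogenic cells, differed by 2.08, and Fabp9, the fatty acid binding protein of germ cells, by 1.96. Fhl4, a LIM protein of the testis, differed by 1.77 and Adam5, a sperm surface protein, by 1.54. Llcfc1, a sperm protein required for fusion with the egg, differed by 1.38, the sperm thioredoxin Txndc2 by 1.21 and the phospholipid flippase Atp8b3 of the acrosome by 1.17. Each of these 9 genes was higher on the positive side within both treatments, as the rule of no overlap requires. Of the 33, 11 were members of the 7 germ cell lists, 1 (Spink2) of the epididymal list and 21 of no list.

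Spink2, a protease inhibitor of the acrosome that is also made in the epididymis, was called from an uneven pattern. It read 11.41 and 10.94 in GC- mice 1 and 4, but 6.28 in GC+ mouse 3 and 6.34 in GC- mouse 3. The negative arrays reached 6.21 in GC+ mouse 2. Its difference of 3.02 thus rests on GC- mice 1 and 4, and was 0.40 within GC+ mice. Sh3gl3, an endophilin of brain and testis, had a like pattern at lower levels, with 7.72 and 7.44 in GC- mice 1 and 4, 6.18 and 6.15 in GC+ mouse 3 and GC- mouse 3, and at most 6.04 on the negative arrays.

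The 4 positive arrays did not rank alike for all genes. For 28 of the 33 genes GC- mouse 1 was highest, and for 28 GC- mouse 3 was lowest. GC+ mouse 3 was the highest array for the nuclear packaging genes Tnp2, Tnp1 and Prm1, and for no other of the 33. This order was not particular to packaging genes. Outside the 33, GC+ mouse 3 was also highest for Spata33 (8.06, against 7.67 in GC- mouse 1), Hmgb4 (6.70 against 6.59) and Slc6a21 (6.69 against 6.64). GC- mouse 1 was highest for Spatc1, Phf7 and the packaging gene H1f7, the last at 6.36 against 6.34 in GC+ mouse 3. GC+ mouse 3 minus GC- mouse 1 was 0.69 for Tnp1 and 0.09 for Prm1, against -1.83 for Smcp, -1.79 for Oaz3, -1.55 for Gapdhs and -1.94 for Crisp2. Some other genes had a small gap as well, -0.17 for Gadd45g and -0.42 for Fabp9. Between the other 2 positive mice, GC- mouse 4 was above GC- mouse 3 in 31 of the 33 genes, Prm1 included, and below it in Tnp2 and Tnp1. Each value is 1 array, so these orders have no replicate error.

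**Figure D2:**
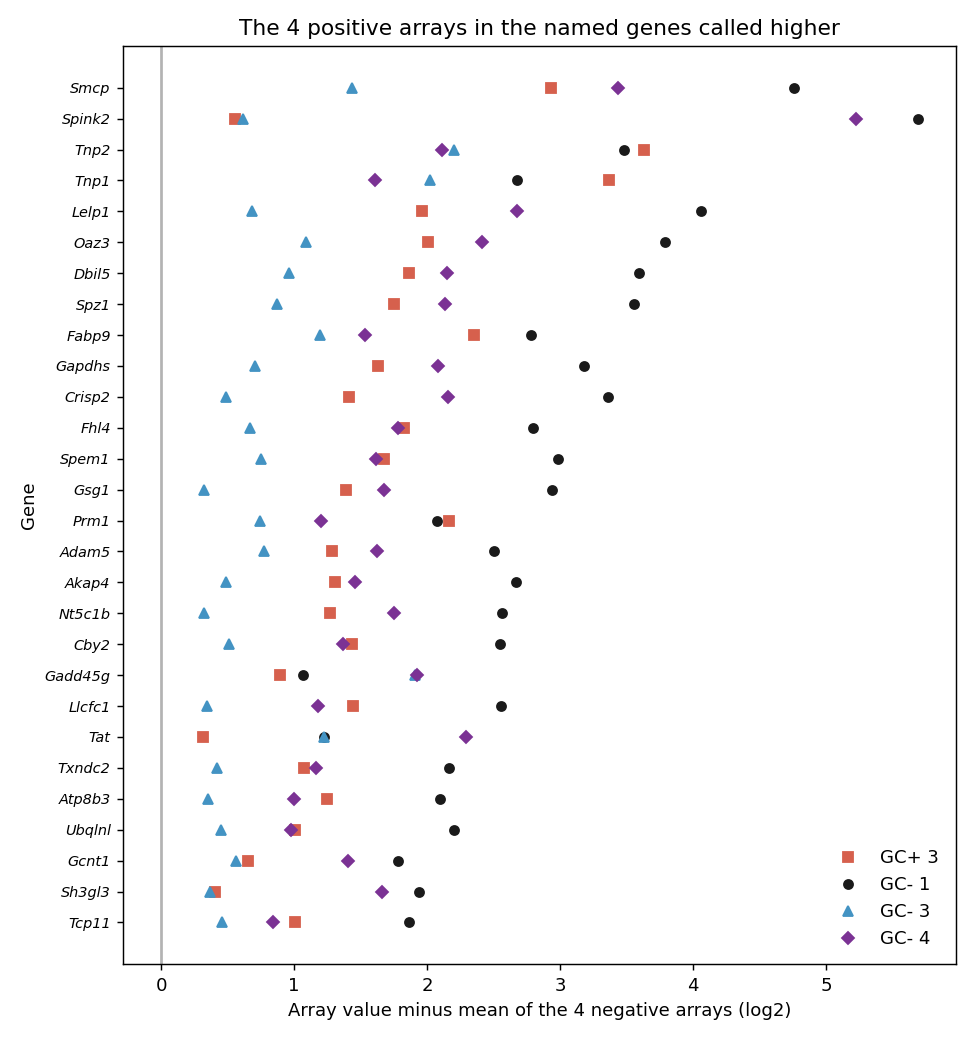
For the 28 genes called higher that carry a gene name (vertical axis), the value of each of the 4 positive arrays minus the mean of the 4 negative arrays (log2, horizontal axis). GC- mouse 1 lies furthest right in most genes; in Tnp2, Tnp1 and Prm1 it is GC+ mouse 3, and in Gadd45g and Tat GC- mouse 4.

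The genes whose values followed Tnp2 most closely over the 8 arrays were led by Tnp1 (Pearson r = 0.99), H1f7 (0.97) and Prm1 (0.97). The 8 values fall into 2 clusters, so these r values mostly restate the sides and are given as a description. Next came Spatc1, a spermatid centriole protein, at 0.97, followed by the clone 1700034E13Rik (0.96), Gucd1 (0.96) and Spata33 (0.95). Slc6a21 (0.95), Sppl2c (0.95) and Phf7 (0.95), a histone reader of male germ cells, made up the 10. Differences in the named genes outside the 33 were mostly under 2-fold: 0.75 for Spatc1, 0.68 for Spata33, 0.69 for Slc6a21 and 0.68 for Phf7, all with the sides apart.

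Regulators of spermatid genes and earlier stages of the germ line moved little. Of 28 measured regulators 0 were called, which is near the 0.203% called higher over all measured genes. The regulator list median was 0.08. Hmgb4, a chromatin protein of spermatids, differed by 0.66 with the sides apart, and Ybx2, which stores germ cell messages, by 0.55 with overlap. Of 30 measured meiotic genes 1 was called, beside 0.203% of all measured genes: Mael, a protein of the piRNA pathway in spermatocytes and round spermatids. It read 6.68 in GC+ mouse 3 and 7.05, 5.18 and 6.15 in GC- mice 1, 3 and 4, against 4.55 to 4.83, a difference of 1.62. Syce2, of the synaptonemal complex, and Stag3, a meiotic cohesin, differed by 0.69 and 0.52 with the sides apart. The meiotic list median was 0.09, and 16 members stayed below 5.82 on every array. Among 12 dim genes called higher, Pgk2, Mael and Cabs1, a calcium binding protein of spermatids with a difference of 1.60, had the largest values of those with a gene name.

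Markers of the other cells of the testis were not called. Of 16 spermatogonial, 21 Sertoli and 10 Leydig cell markers measured, 0 were called in either direction. Of all 22180 measured genes, 0.203% were called higher and 0.0135% lower, so 0 calls in lists this short is near the background. Apart at any fold on the lower side was 1 spermatogonial marker, as were 1.6% of all measured genes. The list medians were -0.12, -0.01 and -0.13. The members with large differences overlapped between the sides. Gfra1, the GDNF receptor of spermatogonial stem cells, has 2 probe sets, and they disagree. The brighter read 9.86 and 8.90 in GC- mice 1 and 4 and 8.01 in GC+ mouse 2, and 5.72 to 6.17 in the other 5. The dimmer read 4.12 to 5.17 on all arrays and differed by -0.23. Cyp17a1, a steroid hydroxylase of Leydig cells, read 8.05 and 7.40 in GC- mice 1 and 4 and at most 6.18 elsewhere. Ptgds, the prostaglandin D synthase of Sertoli cells and epididymis, read 12.76 and 12.38 in the same mice and at most 9.35 elsewhere. The mean levels of these 3 lists ran from 5.84 to 6.05, 6.29 to 6.89 and 6.15 to 6.44 on positive arrays, and from 5.97 to 6.06, 6.25 to 6.72 and 6.18 to 6.41 on negative arrays. Below 5.82 on all arrays were 7, 5 and 3 members.

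**Figure D3:**
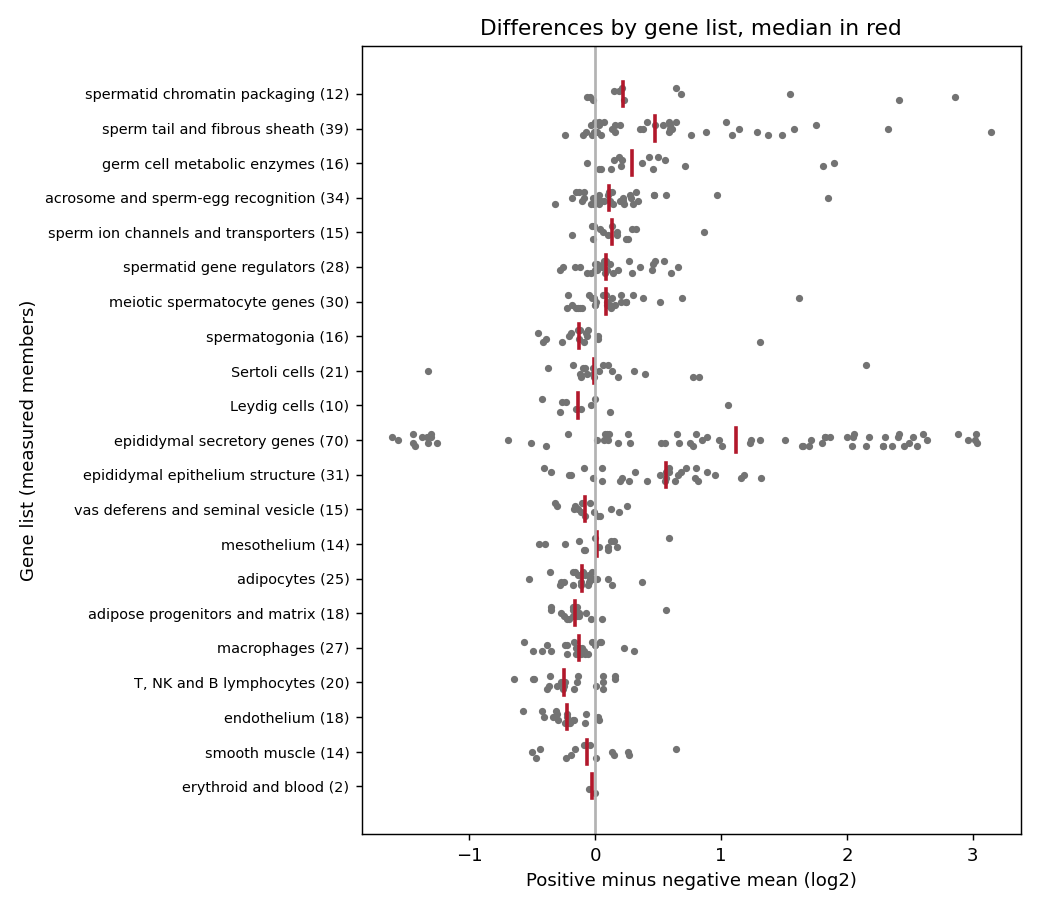
Positive minus negative difference of side means (log2, horizontal axis) for every measured member (grey points) of 21 gene lists (vertical axis, number measured in brackets), with the list median in red. Single members of the chromatin, tail, enzyme, acrosome and meiotic lists lie beyond 1, and so do single members of the spermatogonial, Sertoli and Leydig lists. The medians are 0.22 for chromatin, 0.48 for tail, 0.29 for enzyme, 0.11 for acrosome and 0.09 for meiotic genes. The spermatogonial, Sertoli and Leydig medians lie between -0.13 and -0.01. The epididymal secretory list spreads from -1.61 to 3.03.

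Epididymal transcripts crossed the sides. The mean level of 70 measured epididymal secretory genes was 9.90 in GC- mouse 1 and 8.98 in GC- mouse 4, both positive, and 8.38 in GC+ mouse 2, which is negative. It was 5.38 in GC+ mouse 3 and 5.84 in GC- mouse 3, both positive, and 6.95, 5.50 and 5.35 in the negative GC+ mice 1 and 4 and GC- mouse 2. Gpx5, an epididymal glutathione peroxidase, read 4.57 in GC+ mouse 3, the array with the highest Tnp1. It read 13.81 in GC+ mouse 2, a negative array, and 13.78 and 13.6 in the positive GC- mice 1 and 4. The list median difference was 1.12 over all mice and -1.29 within GC+ mice alone, so its direction is not settled. The epididymal epithelium list had mean levels of 6.36 to 8.23 on positive and 6.24 to 7.80 on negative arrays, and a median of 0.56 that was -0.54 within GC+ mice.

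Leaving out the 3 arrays with the highest epididymal level, a choice made after the data were seen, left 2 positive and 3 negative mice. The difference was then 2.61 for Tnp1, 1.45 for Prm1, 2.28 for Smcp and 1.56 for Oaz3. Those of Lelp1 (1.24), Spz1 (1.28), Gapdhs (1.19) and Crisp2 (1.02) were smaller than over all 8 mice by more than 1.5 times, and Spink2 fell to 0.75. Of the 33 genes 16 were called, among 22 called higher. The epididymal secretory median was -0.28 in these 5 mice.

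**Figure D4:**
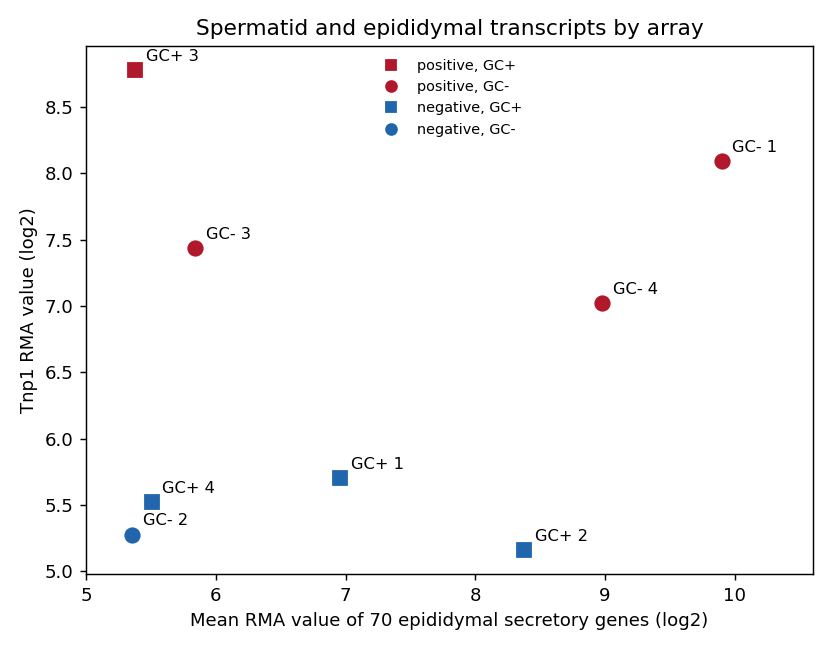
Tnp1 (log2, vertical axis) against the mean value of 70 epididymal secretory genes (log2, horizontal axis) for each of the 8 arrays; colours are the sides and symbols the treatments. High Tnp1 occurs at a low epididymal level (GC+ mouse 3, 5.38) and at a high one (GC- mouse 1, 9.90), and low Tnp1 at 5.35 (GC- mouse 2) and at 8.38 (GC+ mouse 2).

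Fat itself was present on all arrays. Adipoq, the adipocyte hormone adiponectin, read 11.74 to 12.29 and Lep, leptin, 12.87 to 13.66. Adipocyte markers had mean levels of 11.81 to 12.28 on positive and 11.94 to 12.24 on negative arrays, with a median difference of -0.11. At any size, 21 of the 25 measured were lower on the positive side, as were 12303 of all 22180 measured genes. Of 25 measured, 0 were called, where 0.203% of all 22180 measured genes were called higher and 0.0135% lower. Over macrophages, endothelium, lymphocytes, smooth muscle, mesothelium and adipose progenitors, 0 members were called, again near those shares. Their list medians ran from -0.24 for lymphocytes to 0.02 for mesothelium. Lower at any size were 23 of 27 macrophage, 16 of 18 endothelial, 16 of 18 progenitor and 14 of 20 lymphocyte genes. So were 8 of 14 smooth muscle and 6 of 14 mesothelial genes. The values of every pair of arrays differed, with pairwise correlations of 0.879 to 0.986 across genes.

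Called genes also included some known mainly from other settings. Gadd45g, a stress-induced growth arrest gene, read 9.42 in GC+ mouse 3 and 9.59, 10.43 and 10.45 in GC- mice 1, 3 and 4, against 8.30 to 8.94, a difference of 1.45, with 1.59 within GC- and 0.91 within GC+ mice. Tat, tyrosine aminotransferase, a gene known to respond to glucocorticoids, differed by 1.27, but its lowest positive array, GC+ mouse 3, lay only 0.03 above GC+ mouse 4, a negative one at 6.37. With treatment as a term the differences were 1.25 and 0.89, so Tat fell below 2-fold.

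The 2 genes called lower were Sfrp5 and Rab26. Sfrp5, a secreted Wnt antagonist made by adipocytes, read 10.12 in GC+ mouse 3 and 9.62, 10.45 and 10.03 in GC- mice 1, 3 and 4. The negative arrays read 11.12, 10.93 and 11.78 in GC+ mice 1, 2 and 4 and 10.50 in GC- mouse 2. The difference was -1.03, with -0.46 within GC- and -1.15 within GC+ mice, and the 2 closest arrays were 0.05 apart. Rab26, a GTPase of secretory vesicles, read 9.21 in GC+ mouse 2 and 5.49 to 6.35 elsewhere, and its difference of -1.10 became -0.34 without that mouse. With treatment as a term the differences were -0.81 for Sfrp5 and -0.74 for Rab26, so neither call held there. The count of 2 was 6 without GC+ mouse 3, 4 without GC- mouse 2, 3 or 4, and 1 without GC+ mouse 4 or GC- mouse 1.

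The labelled treatment was tested apart from the sides. Tnp2 averaged 6.26 ± 1.79 in GC+ and 7.23 ± 1.51 in GC- mice (SD, n = 4 each), a limma difference of -0.97 ± 0.998 (SE, adjusted p = 0.825). The two-sided exact permutation p for Tnp2 was 0.486, where 4 against 4 allows no value below 0.0286. Because Tnp2 set the sides, its values here largely restate their uneven split by treatment and are no separate evidence. Tnp1 differed by -0.67 ± 0.88 (limma adjusted p = 0.863) and Prm1 by -0.45 ± 0.60 (limma adjusted p = 0.864). The spread of each within a treatment was as large as the difference between treatments. Over all genes 0 of 14787 (0%) passed a limma adjusted p of 0.05 for treatment, 842 had an unadjusted p under 0.05 and the lowest adjusted p was 0.713. With the Tnp2 side as a covariate 0 passed again (0%), 519 had an unadjusted p under 0.05 and the lowest adjusted p was 0.842.

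For the promoters, 37 of the 45 genes called higher with no filter on dim genes had a RefSeq window of 300 bases, and 50 windows in all. The loose element TGANNTCA lay in 34% of these windows (17 of 50, in 14 genes) and in 14.1% of all 32851 windows. The loose form was picked after the windows shown were seen, so these shares are a description and were not tested. They count windows and not genes, and windows of the same gene can overlap. Gapdhs has matches at -94 and -76 in its first window and at -70 and -52 in the other. The strict element TGACGTCA lay in 0 of the 50 and in 1.79% of all windows; each match of it is also a match of the loose form. Among the matches not shown were position -35 of Akap4, -45 and -82 of Lelp1, and 25 after the start in Smcp. A match is a run of letters in a window and not a measured binding site.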

How the data were processed

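The authors deposited log2 expression values from RMA (robust multiarray average) as run by Expression Console, per the labels. The arrays were Affymetrix Mouse Gene 2.0 ST, hybridised from 100 ng of RNA. RMA makes array distributions equal and compresses low signals. The submitters' processing notes also list Partek 6.6, without saying what for. The genome build is not given in the sources used here. Gene symbols came from GEO's annotation of the platform: 23521 of 41345 had 1 symbol, 1814 several and 16010 none. Per gene the brightest probe set was kept (22180 genes), and the dimmest 33.3% by mean over 8 arrays (below 5.82) were left out, leaving 14787. List counts and medians use all measured genes. The side contrast was computed with pandas 2.3.3 and carries no test. Treatment was tested with limma 3.58.1 in R 4.3.3, with Benjamini-Hochberg adjustment and a threshold of 0.05; the procedures were tested on simulated data. Replicates are labelled biological, and their number limits precision. Members, lists and rules were chosen with earlier results of these data known. Genes named are Tnp2, Tnp1 and Prm1, the largest called differences, 3 members per list and fixed markers; others were named after their values were seen. Replicate numbers shared by GC+ and GC- mice gave no sign of pairing them, and the sample titles state no pairing. Figures used matplotlib 3.10.9.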

Additional observations from a re-analysis of the deposited data

Results flagged for a closer look

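Within the labelled groups of 4 mice, 57 genes named in the text were examined for an array far from the other 3, using Dixon's ratio at its 95% critical value. This picked out 17 of 114 gene and group pairs, and 15 of the 17 were GC+ mouse 3. Chance flags about 1 in 20 groups, but that rate is no yardstick here: most of these genes were named for differing between the sides, Tnp2 set the sides, and GC+ mouse 3 is the 1 positive mouse of its group. Nuclear packaging genes in GC+ mouse 3 were Tnp2 at 8.95 and Tnp1 at 8.78, against at most 5.38 and 5.70 in the other GC+ mice. Tail, enzyme and acrosome genes there were Gsg1 at 7.15, Akap4 at 7.44, Tcp11 at 7.64, Gapdhs at 8.25, Txndc2 at 7.06 and Atp8b3 at 7.64. Other germ cell genes there were Mael at 6.68, Fhl4 at 8.23, Spatc1 at 6.72, Spata33 at 8.06, Phf7 at 7.65 and Hmgb4 at 6.70. The brighter probe set of Odf1 read 12.92 there, 0.10 above the next GC+ mouse. The other 2 were in GC+ mouse 2: Rab26 at 9.21, with 6.35 next, and the brighter probe set of Gfra1 at 8.01, with 6.04 next.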

How the results depend on the processing

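The count of 33 genes higher and 2 lower on the positive side was 17 and 1 without the dimmest 50% of genes, 68 and 18 at 1.5-fold and 8 and 0 at 4-fold. With overlap allowed it was 182 and 21. It was 353 and 19 within GC- mice alone and 95 and 153 within GC+ mice alone, where a single array on one side makes overlap rare. The lower count was 1 after a repeated quantile normalization, 5 with treatment as a term, 21 with sides set from Prm1 and 9 without the 3 arrays of highest epididymal level. Leaving out each mouse gave 25 to 59 higher and 1 to 6 lower. The higher count was 45 with no filter, a setting that can only add genes to the 33. It was 33 with averaged probe sets, the same 33 genes. Sides set from Tnp1 are the same sides as from Tnp2, so the 33 found with them are the same contrast and no check. With sides set from Prm1 the higher count was 27, of which only 13 were among the 33. Over the alternatives, 1302 differences of named genes and 378 list medians moved by less than 1 SD between arrays, 62 and 19 by more, and no called gene changed sign. Same-numbered GC+ and GC- mice had correlations of -0.19, -0.58, 0.13 and -0.28 between their deviations from the group means. These values gave no sign that the numbers pair the mice, but so few correlations cannot exclude it. With a replicate block the side counts were 537 and 72, and treatment called 0 genes with or without the side as covariate, as under every other setting run. At low signal the array limits what could be seen: 7393 genes were dim, and 12 of them were called higher and 1, Mir708, lower.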

Other observations

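A further 149 genes were at least 2-fold higher on average on the positive side but overlapped the negative arrays, out of 182 genes (1.23%) past 2-fold in that direction. In 143 of the 149 the brightest arrays were GC- mice 1 and 4, and in 96 the 3 brightest were these mice and GC+ mouse 2, the 3 arrays of highest epididymal level. Among them, Spint4, an epididymal protease inhibitor, read 12.31 and 12.12 in GC- mice 1 and 4 and 4.62 in GC+ mouse 3, and Rnase13, an epididymal member of the RNase A family, read 11.39, 10.82 and 4.64. Of the 149, 34 were members of the epididymal lists, which hold 54 and 29 of the 14787 kept genes. Choosing genes with a high positive mean but overlap favours a few bright positive arrays, so the array orders above are a description.

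Cst12, a cystatin of Sertoli cells and epididymis, read 10.34 in GC+ mouse 2, 6.17 in GC+ mouse 1, 5.95 in GC- mouse 1 and 4.41 to 4.85 in the other 5. Actg2, an actin of smooth muscle, read 12.11 in GC+ mouse 2 and 4.83 to 7.92 elsewhere. Both were highest in the array with the lowest Tnp1, though its 5.16 was close to the 5.28 of GC- mouse 2.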
